A study of Mus musculus with 4 samples.

Results

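The insulin-like growth factor (IGF) family was followed through the cell types of the cerebellar subdural meninges. It was taken as 10 genes by their symbols: the ligands Igf1 and Igf2, the receptors Igf1r and Igf2r, and the binding proteins Igfbp2 to Igfbp7. All 10 were found among the 32285 features of each matrix. The meninges came from perinatal mice of 2 genotypes, NdpWT with intact Ndp and NdpKO with Ndp knocked out, and the comparison asks how meningeal cells differ when norrin, the Ndp product, is missing. Every mouse of both genotypes also carried Neurod2-SmoA1+/-, a transgene for an activated Smoothened under a promoter of neurons, on a C57/BL6 background. There is thus no group without the SmoA1 transgene. Each genotype has 2 libraries of droplet single-cell RNA sequencing, and each library pools 5 cerebella, so the spread between libraries is that between pools and not between animals. The age is P6-P8 in the sample fields and P7 to P9 in the protocol, which also has the dura and choroid plexus set aside. Values of the 4 libraries are given in the order NdpWT replicate 1, NdpWT replicate 2, NdpKO replicate 1, NdpKO replicate 2.

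IGF1 and IGF2 are secreted growth factors. Both signal through the tyrosine kinase IGF1R, while IGF2R, which is also the cation-independent mannose 6-phosphate receptor, carries IGF2 to the lysosome and clears it. The binding proteins IGFBP2 to IGFBP6 hold IGFs with high affinity in the extracellular space and can store, deliver or withhold them. IGFBP7 binds IGFs weakly and is best known as a protein of the vascular basement membrane. The leptomeninges are a known source of IGF2 in cerebrospinal fluid, macrophages of many tissues are a source of IGF1, and IGF1R on endothelial cells has been linked to the passage of IGF1 from blood to brain. Norrin acts through the receptor Fzd4 on brain endothelium and drives beta-catenin signalling there, and the TCF/LEF factors that work with beta-catenin bind DNA at sites with the core CTTTGA.

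In the GRCm38 annotation (GENCODE release M21, 1-based) Igf1r lies on chromosome 7 at 67952827 to 68233668 on the plus strand, and Igfbp7 on chromosome 5 at 77349240 to 77408041 on the minus strand. Igf1 lies on chromosome 10 at 87858265 to 87937042. Some members are neighbours: Igfbp2 and Igfbp5 are separated by 5457 bases on chromosome 1, and Igf2 lies 72622 bases from H19, the imprinted noncoding gene of the same locus, on chromosome 7. The promoter of Igf1r is shown because it was the member called between genotypes in endothelial cells, where norrin acts. That of Igfbp7 is set beside it because Igfbp7 was called in 1 endothelial cluster, in a comparison chosen after the class results were seen. Each is the 250 bases before the RefSeq transcription start (GRCm38.p6), written 5′ to 3′ on the strand of the gene, and capitals mark the letters CTTTGA. The Igf1r stretch is chr7:67952007-67952256 on the plus strand and the Igfbp7 stretch is chr5:77408046-77408295 on the minus strand, and neither overlaps an annotated exon.
Igf1r: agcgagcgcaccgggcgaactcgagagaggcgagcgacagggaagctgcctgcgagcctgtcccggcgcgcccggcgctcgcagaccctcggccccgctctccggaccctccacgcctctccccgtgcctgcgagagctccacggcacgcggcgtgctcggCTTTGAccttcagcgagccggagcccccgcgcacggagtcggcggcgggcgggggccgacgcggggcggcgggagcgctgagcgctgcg
Igfbp7: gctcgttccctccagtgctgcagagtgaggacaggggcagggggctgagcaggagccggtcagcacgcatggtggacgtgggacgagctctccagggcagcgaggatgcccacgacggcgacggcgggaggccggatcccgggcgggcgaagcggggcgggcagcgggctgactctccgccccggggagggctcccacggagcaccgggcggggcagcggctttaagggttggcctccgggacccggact

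Both strands were searched for CTTTGA, which reads TCAAAG on the opposite strand. The Igf1r promoter holds it at 89 bases before the start, and the Igfbp7 promoter does not hold it. Of 14 RefSeq promoters of the 10 genes, 3 hold these letters, beside 4544 of all 32851 promoters (13.8%). The longer form CTTTGAT, which overlaps the first and reads ATCAAAG on the opposite strand, is in 0 of the 14 and in 1053 of all (3.21%). A match to letters is a description and not evidence of binding, and no match says only that these letters are not in this window. The Igf1r stretch has a GC content of 77.6% and the Igfbp7 stretch 74.0%.

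After filtering, 37915 cells remained, with 5599 to 12561 per library and a median of 7220 to 14296 UMIs (unique molecular identifiers, 1 per captured transcript) per cell. NdpKO replicate 1 stood apart: 44.1% of its barcodes were kept, beside 64.8% to 67.0% in the others, and mitochondrial UMIs made up over 10% in 21.8% of them. Cells were clustered without the 10 genes and named from fixed markers, and 9 classes had at least 50 cells in every library. Of all cells, 5665 (14.9%) stayed unnamed. These names are a reconstruction and need not be those of the study. The libraries shared 15 to 47 cell barcodes per pair. Levels are given as plain CPM, the UMIs of a gene per 1000000 UMIs of a class in a library. Ndp itself was at 2.07 and 1.35 plain CPM in the wild-type libraries and at 0.411 and 0.470 in the knockout libraries, all cells together, which is lower in both knockout libraries. The sources used here do not say whether the remaining tags lie outside the deleted part of Ndp.

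The ligand Igf2 was highest in fibroblasts. Its level in the fibroblast class was 3796, 3582, 4130 and 3315 plain CPM, 8.85 times the mean of the next class, and 84.8% to 94.1% of all Igf2 UMIs of a library were in fibroblasts. In each of the other 8 classes Igf2 was lower in every library than in any library's fibroblasts, with means from 117 to 419 plain CPM. Those lower levels were set beside the fibroblast RNA that each class holds. A level carried with that RNA was computed as the share of fibroblast marker UMIs that a class holds relative to the fibroblasts of its library, times the gene's level in those fibroblasts. For Igf2 the carried level came to 43.2% to 80.5% of the measured level in endothelial cells and to 39.2% to 62.1% in macrophages. In mural cells it was above the measured level, at 161% to 264%. A carried level above the measured level is more than can be there. Wherever this occurs the estimate was too high, and it does not measure the fibroblast RNA in that class.

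Igf1 had 2 sources. Macrophages were at 349, 388, 628 and 655 plain CPM and fibroblasts at 103, 132, 90.8 and 129, and every macrophage library was above every fibroblast library. Summed over their cells, fibroblasts held 40.1% to 55.7% of a library's Igf1 UMIs and macrophages 37.5% to 55.9%. The carried level was below 1% of the macrophage level (0.259% to 0.766%). In the third class by level, monocyte or dendritic cells, Igf1 was at 13.7 to 57.1 plain CPM, and the remaining classes had means of 3.16 to 14.2.

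The receptor Igf1r was broadly present. In endothelial cells it was at 290, 213, 120 and 101 plain CPM. Both wild-type libraries there were above every library of the other classes, while both knockout libraries were below the same library's granule neuron lineage cells and other neurons. The other means, over libraries of both genotypes (± SD, n = 4), were 140 ± 22.2 in granule neuron lineage cells, 121 ± 26.9 in other neurons, 108 ± 7.12 in mural cells and 94.7 ± 5.22 in fibroblasts. No neighbours in that order were separated in all libraries. The next class, macrophages at 50.5 ± 5.87, was below fibroblasts in every library. Igf2r had its highest means in mural cells (69.1 ± 7.73), endothelial cells (53.4 ± 9.42) and fibroblasts (50.3 ± 4.68), whose libraries overlapped. It was lowest in macrophages, at 1.44 to 3.62 plain CPM from 68 UMIs in all.

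The binding proteins divided by cell type. Igfbp2, Igfbp5 and Igfbp6 were highest in fibroblasts, at 1742 ± 130, 736 ± 128 and 654 ± 56.5 plain CPM, and for each of them every fibroblast library was above every library of the next class. Igfbp7 was highest in mural cells (3674, 3382, 3919 and 4026 plain CPM), followed by endothelial cells (1921, 1577, 2216 and 2795) and by fibroblasts (182 to 275), with no overlap between these classes. Igfbp4 was highest in macrophages (857 ± 108) and endothelial cells (840 ± 57.1), which overlapped, and next in fibroblasts (562 ± 66.1). Igfbp3 had its highest mean in endothelial cells (144 ± 55.1), with a range of 82.9 to 217 that overlapped the 50.2 to 92.0 of fibroblasts. Igfbp5 was also present in neural cells: other neurons ranged from 108 to 372 plain CPM and granule neuron lineage cells from 118 to 169.

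**Figure D1:**
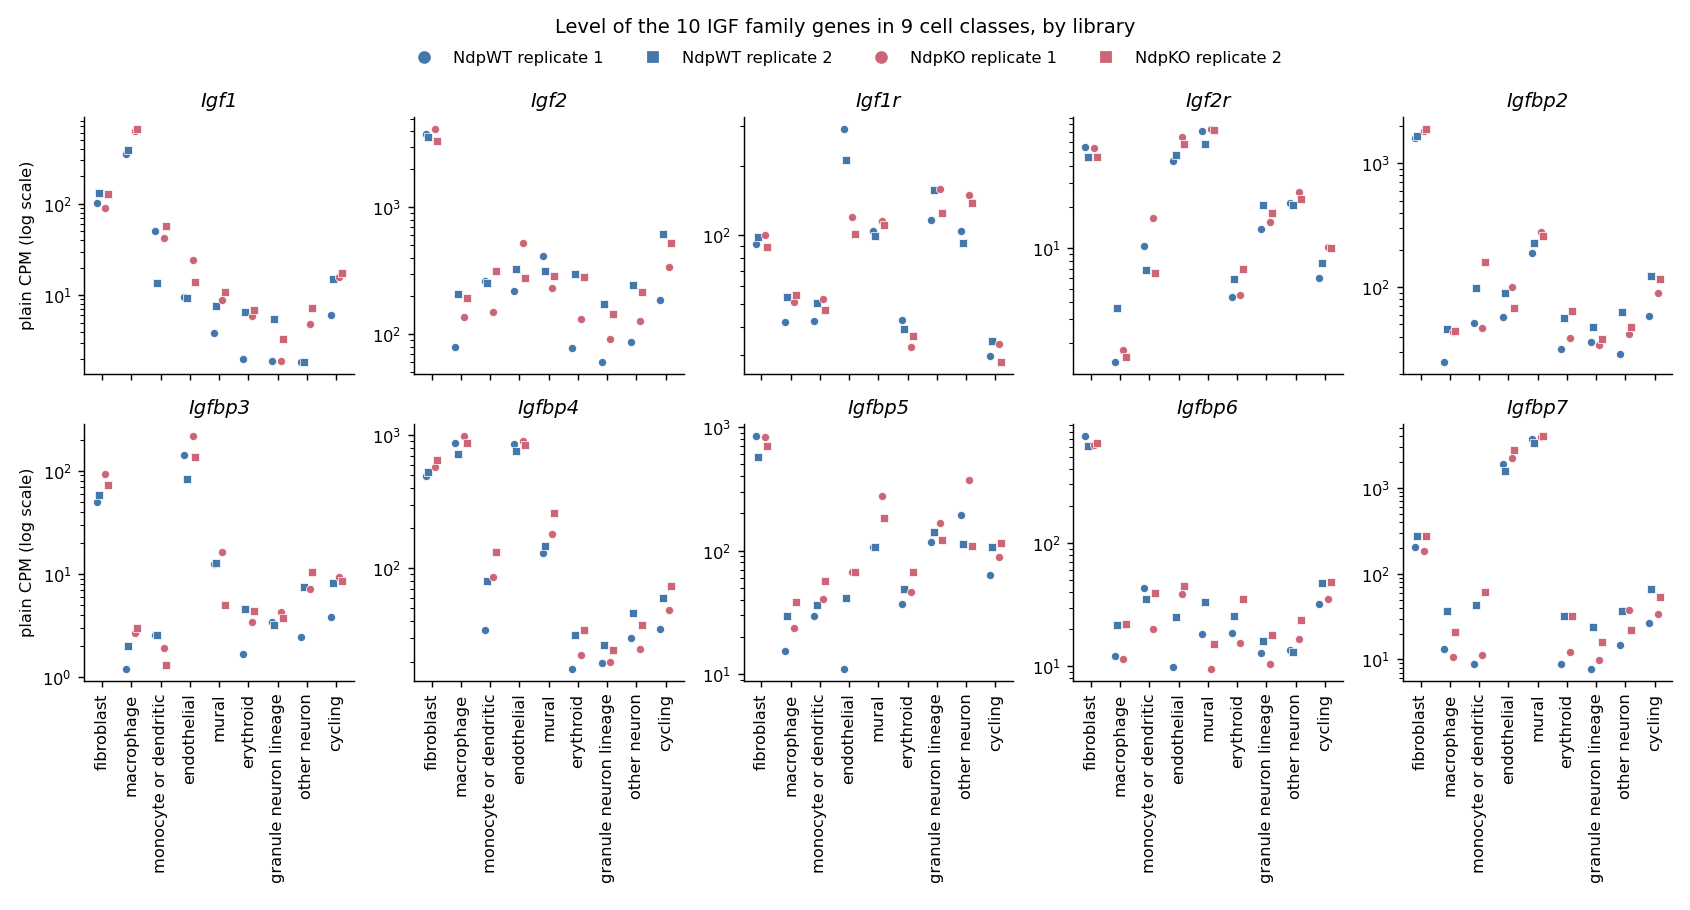
Level of each of the 10 genes in 9 cell classes, in plain CPM on a log axis; each point is a library, with NdpWT in blue and NdpKO in red, circles for replicate 1 and squares for replicate 2. Igf2, Igfbp2, Igfbp5 and Igfbp6 are highest in fibroblasts, Igf1 in macrophages and Igfbp7 in mural cells, and the endothelial points of Igf1r separate by genotype.

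The fibroblasts were not uniform in these genes. A second clustering, again without the 10 genes, gave 13 fibroblast subtypes, of which 7 were tested: these had at least 50 cells in every library, were not of low depth and were not led by genes of another cell type. Igf2 had a mean of 6127 plain CPM in F1, whose leading genes include Cyp26b1, Nnat and Fmod, and of 5673 in F7, led by Mfap4 and Eln. It was at 1485 in F5, a subtype like the Ecrg4 Nppc fibroblasts by its markers, and at 738 in F8, which carries arachnoid barrier markers such as Msln and Cdh1. Among the 7, Igfbp6 was highest in F5 (1717) and F8 (1705), the subtypes with the lowest Igf2. In F4, led by Moxd1 and Krtdap, both genes were high, with Igfbp6 at 1277 and Igf2 at 4253. In F2, the subtype led by Col15a1 and Lamc3, Igfbp6 was at 24.0 and no library was above 28.6, while Igf2 was at 3620. Among the 7, Igfbp5 was highest in F5 at 2216 and Igfbp2 in F1 at 2837. Igfbp3 was highest of the 7 in F4 at 366, with a range of 251 to 458, and the next mean was 96.6 in F9, the cycling fibroblasts. Igf1 was at 391 in F7. In F12, a small subtype of 93 cells led by Dlk1 and Ddit4l with only 5 to 62 cells per library, Igf1 reached 965 and all 4 libraries were between 809 and 1141. Igfbp2 was at 3821 there (3007 to 4839), above its mean in F1.

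**Figure D2:**
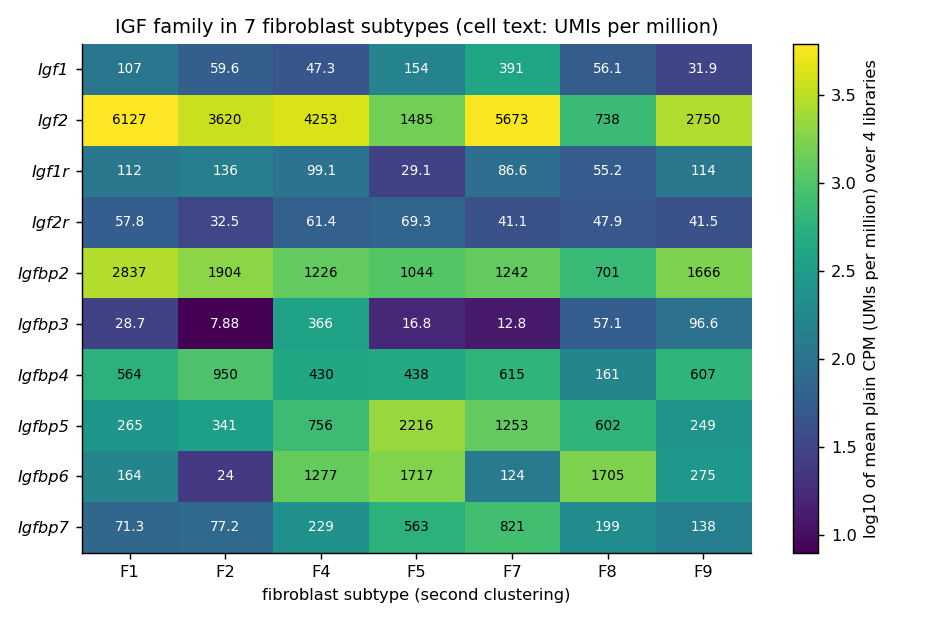
Mean level of the 10 genes over the 4 libraries in 7 fibroblast subtypes of a second clustering; the colour is the log10 of the plain CPM and the text in each cell is the level itself. Igf2 is highest in F1 and F7 and lowest in F8, while Igfbp6 is highest in F5 and F8 and lowest in F2.

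Knockout was compared with wild type in each class by edgeR's quasi-likelihood test on UMI sums per library, with Benjamini-Hochberg adjustment over all genes of the class and a threshold of 0.05. Levels in these comparisons are CPM scaled with TMM factors, written as CPM, and log2 changes are knockout over wild type. Of 87 tests of the 10 genes in 9 classes, 1 was called, Igf1r in endothelial cells, and 13 had an unadjusted p under 0.05. By class, 5 of these were in endothelial and 5 in mural cells, and 1 each in fibroblasts, macrophages and other neurons. The share of all genes with such a p was 12.5% in endothelial cells, 6.47% in mural cells and 5.48% in fibroblasts. It was 5.28% in macrophages and 1.47% to 4.95% in the remaining classes. Of all genes, 2.23% were called in endothelial cells, 0.0961% in macrophages, 0.0369% in mural cells and 0.0104% in cycling cells. The share was 0% in each of fibroblasts, granule neuron lineage, other neuron, erythroid and monocyte or dendritic cells. In 86 tests in 9 subtypes 0 were called and 23 had an unadjusted p under 0.05, while DESeq2 called 1 (Igfbp5 in F1). Over all genes 4.01% (F5) to 9.54% (F2) had such an unadjusted p in these subtypes.

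Endothelial Igf1r was lower in the knockout. It was at 296, 213, 120 and 100 CPM. Both knockout libraries were below both wild-type libraries, and the lower wild-type value was well above the higher knockout value. Igf1r fell by 1.20 on the log2 scale (SE 0.176, edgeR adjusted p = 0.00594), with a wild-type mean 2.31 times the knockout mean. It was called with the same sign under each of the 12 alternatives, between -1.42 and -0.95. At Leiden resolution 0.5 the endothelial clusters had the same cell counts and gave the same values as the main fit, so that alternative adds nothing. The share of endothelial cells with an Igf1r UMI was 64.3%, 55.3%, 60.7% and 46.4%, at median depths of 8894, 6840, 15340 and 8736 UMIs. Thinned to 2000 UMIs per cell, which left out 51, 215, 62 and 89 shallower cells, the shares were 38.0%, 33.6%, 19.1% and 16.1%. In erythroid cells, taken as a background, the thinned shares were 4.90%, 4.64%, 2.29% and 3.44%. The 9 fibroblast markers, all of them detected in every library, summed to 339, 822, 1302 and 725 plain CPM in endothelial cells, and the Igf1r carried with them was 0.788% to 8.46% of the endothelial level. With the endothelial cells richer in fibroblast RNA left out, the change was -1.20 on the log2 scale (edgeR adjusted p = 0.00445). In that setting Igfbp2 was called as well, at -1.23 (edgeR adjusted p = 0.00386), while over all endothelial cells it was at 58.3, 89.1, 99.3 and 67.3 CPM (log2 change 0.15, edgeR adjusted p = 0.893) and its carried level was 70.4% to 186% of the measured level.

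The endothelial change in Igf1r was tested against the change in the other main classes. Fibroblast Igf1r was at 93.6, 97.3, 98.9 and 89.1 CPM and mural Igf1r at 103, 99.5, 121 and 111 CPM. The fibroblast libraries overlapped between genotypes, and both mural knockout libraries were above both wild-type libraries. The knockout change in fibroblasts was higher than that in endothelial cells by 1.16 on the log2 scale (SE 0.188, edgeR adjusted p = 0.0438), and that in mural cells by 1.35 (SE 0.156, edgeR adjusted p = 6.59e-05). Of all genes, 2.75% and 1.38% differed in these comparisons. Over the 6 pairs of these 4 classes, 4 of 60 tests of the 10 genes were called, all against endothelial cells. In the pairs without endothelial cells 0.0682% (macrophage minus fibroblast), 0.440% (mural minus fibroblast) and 0.177% (mural minus macrophage) of all genes differed. Macrophage Igf1r was at 43.1, 53.8, 51.7 and 53.3 CPM, and the difference from endothelial cells, 1.29 (SE 0.337), did not pass the test (edgeR adjusted p = 0.309). The fibroblast difference lost its call without NdpKO replicate 1 (1.19, edgeR adjusted p = 0.167) and without NdpKO replicate 2 (1.05, edgeR adjusted p = 0.157). The mural difference was called in all 4 fits that left out a library. The macrophage difference passed the test without NdpWT replicate 1 or without NdpWT replicate 2.

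Endothelial cells formed 2 clusters, and Igf1r was called in the larger. Cluster 11 (1497 cells) was led by Cldn5, Kdr, Flt1 and the amino acid transporter gene Slc38a5. Cluster 19 (695 cells) was led by Eln, Fbln5, Gkn3 and Vwf, the first of which encodes the elastin of arterial walls. In cluster 11 Igf1r was at 378, 261, 158 and 111 CPM and fell by 1.25 on the log2 scale (SE 0.229, edgeR adjusted p = 0.0303). In cluster 19 it was at 92.3, 84.7, 81.9 and 85.6 CPM, and the wild-type and knockout libraries overlapped (log2 change -0.07, SE 0.168, edgeR adjusted p = 0.999). The difference between the clusters was 1.13 on the log2 scale (SE 0.219) and did not pass the test (edgeR adjusted p = 0.0611), although it did without NdpKO replicate 1 (1.43) or without NdpKO replicate 2 (0.84). Of all genes, 3.27% were called in cluster 11, 0.00918% in cluster 19, and 0.788% in the test of their difference. Cluster 11 made up 74.3% and 71.7% of wild-type endothelial cells and 56.2% and 65.5% of knockout endothelial cells. These cluster comparisons were chosen after the class results were seen.

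Igfbp7, the basement membrane binding protein, went the opposite way in cluster 11. Its levels there were 2244, 1783, 3474 and 3699 CPM, so that both knockout libraries were above both wild-type libraries. Igfbp7 rose by 0.83 on the log2 scale (SE 0.167, edgeR adjusted p = 0.0165). The call was lost without NdpKO replicate 1 (edgeR adjusted p = 0.0758) and without NdpKO replicate 2 (edgeR adjusted p = 0.107). In cluster 19 Igfbp7 was at 1239, 1024, 863 and 1398 CPM, and the genotypes overlapped. The difference between the clusters was -0.87 (SE 0.229, edgeR adjusted p = 0.438). Over all endothelial cells Igfbp7 was at 1961, 1578, 2209 and 2777 CPM (log2 change 0.50, SE 0.181, edgeR adjusted p = 0.249). Igfbp7 is among the 10 leading genes of cluster 11 by fold, though it was not used to form it.

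**Figure D3:**
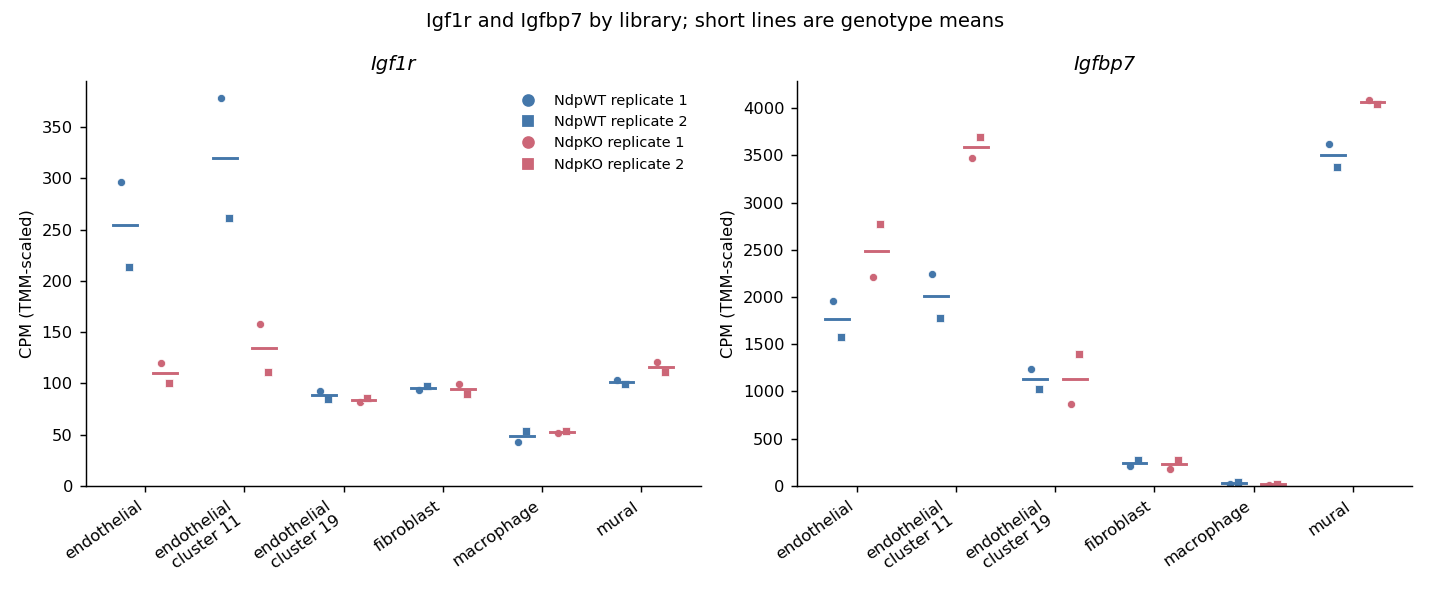
Igf1r (left) and Igfbp7 (right) in CPM scaled with TMM factors in endothelial cells, their clusters 11 and 19, fibroblasts, macrophages and mural cells; points are libraries and short lines are genotype means. Igf1r separates by genotype in endothelial cells and in cluster 11 but not in cluster 19, and Igfbp7 is higher in both knockout libraries in cluster 11.

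Of the 10 genes, 5 were higher in both knockout libraries than in both wild-type libraries in endothelial cells, beside 21.0% of all genes. These were Igf1, Igf2r, Igfbp5, Igfbp6 and Igfbp7, and none of them passed the test. Igf1r was the 1 gene lower in both, beside 21.7%. Endothelial Igf1 was low, at 9.83, 9.24, 24.0 and 13.8 CPM (log2 change 1.00, SE 0.286, edgeR adjusted p = 0.127). The Igf1 carried with fibroblast RNA was 26.6% to 78.7% of that measured, and Igf1 carried with macrophage RNA was not estimated. Endothelial Igf2r was at 44.4, 48.1, 64.2 and 57.3 CPM (log2 change 0.39, SE 0.148, edgeR adjusted p = 0.273).

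Endothelial Igfbp6 and Igfbp5 were near the level that fibroblast RNA would carry. Igfbp6 was at 10.1, 24.9, 38.6 and 44.4 CPM (log2 change 1.13, SE 0.363, edgeR adjusted p = 0.270), and its carried level was 84.4% to 185% of what was measured. Without the endothelial cells richer in fibroblast RNA the Igfbp6 change was -0.24. For Igfbp5, at 11.1, 41.6, 67.3 and 67.0 CPM, the carried level was 60.5% to 194%. The knockout change of Igfbp6 in endothelial cells was higher than in macrophages (macrophage minus endothelial -1.35, SE 0.265, edgeR adjusted p = 0.0302, beside 1.43% of all genes) and than in mural cells (mural minus endothelial -2.22, SE 0.293, edgeR adjusted p = 0.000258). The carried level of Igfbp6 was 64.4% to 96.6% of the measured level in macrophages. In mural cells it was 284% to 969%, so the estimate was too high there. The call against macrophages was lost without NdpKO replicate 1 (-1.01, edgeR adjusted p = 0.158). The part of carried RNA in these 2 differences was not tested.

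**Figure D4:**
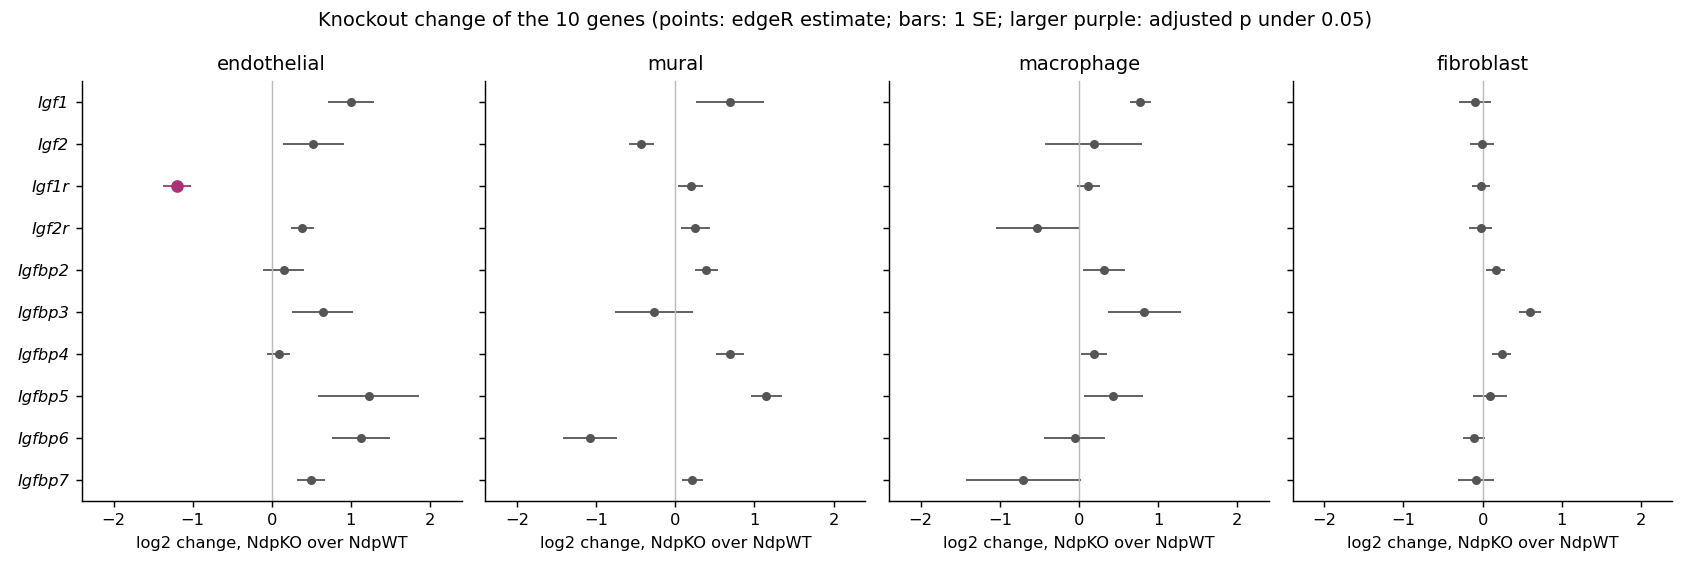
Knockout change of the 10 genes on the log2 scale in endothelial, mural, macrophage and fibroblast cells; points are edgeR estimates, bars are 1 SE, and the larger purple point has an adjusted p under 0.05. Endothelial Igf1r is the only such point, and the fibroblast estimates of Igf1r and Igf2 lie near 0.

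Macrophage Igf1 was higher in both knockout libraries but was not called. Its levels were 358, 386, 637 and 637 CPM, with little spread within a genotype. The log2 change was 0.78 (SE 0.136, edgeR adjusted p = 0.0935). It was called in 7 of 13 alternatives, among them DESeq2 and the fit without a filter on low counts. These 2 called 17 of 12483 and 83 of 19956 genes in all, beside 12 of 12483 in the main fit. Macrophage Igf1 was not called without NdpKO replicate 1, without NdpKO replicate 2 or with the stricter cell filter. With M5, a subtype described next, kept in, the size of its change stayed between 0.72 and 0.85. Of the 10 genes, 2 were above in both knockout macrophage libraries (Igf1 and Igfbp3), beside 17.0% of all genes, and 0 were below in both, beside 16.5%. The share of macrophages with an Igf1 UMI, thinned to 2000 UMIs, was 46.4%, 48.2%, 67.2% and 61.5%, and that of erythroid cells was 0.408%, 1.43%, 0.917% and 1.15%.

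The mix of macrophage subtypes moved with that difference. A second clustering gave 8 subtypes, M1 to M8. In M5, led by the haem oxygenase gene Hmox1, Clec4d and the lipoprotein lipase gene Lpl, Igf1 was at 790, 928, 1035 and 1300 plain CPM, above the same library's level in every other subtype. M5 made up 0.619% and 3.99% of wild-type macrophages (7 and 36 cells) and 16.0% and 11.2% of knockout macrophages (99 and 61 cells). It held 1.48%, 11.7%, 41.1% and 31.1% of the macrophage Igf1 UMIs. With M5 left out, macrophage Igf1 was at 357, 360, 499 and 518 CPM, still without overlap, and the log2 change was 0.50 (edgeR adjusted p = 0.931). In M1, the largest subtype, Igf1 was at 474, 466, 621 and 651 CPM (log2 change 0.44, SE 0.137, edgeR adjusted p = 0.661). In M4, which carries markers of Lyve1 border macrophages, it was at 216, 217, 250 and 291 CPM (log2 change 0.32, SE 0.163, edgeR adjusted p = 1.00). The share of genes called was 0.0288% in M1 and 0% in M4. M3, led by Jun, Fos and Egr1, came almost wholly from NdpWT replicate 1 (502 of 543 cells). In M2, M6 and M8 genes of other cell types lead (Dcn and Col1a1 in M2, Neurod1 in M6, Hbb-bt in M8).

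**Figure D5:**
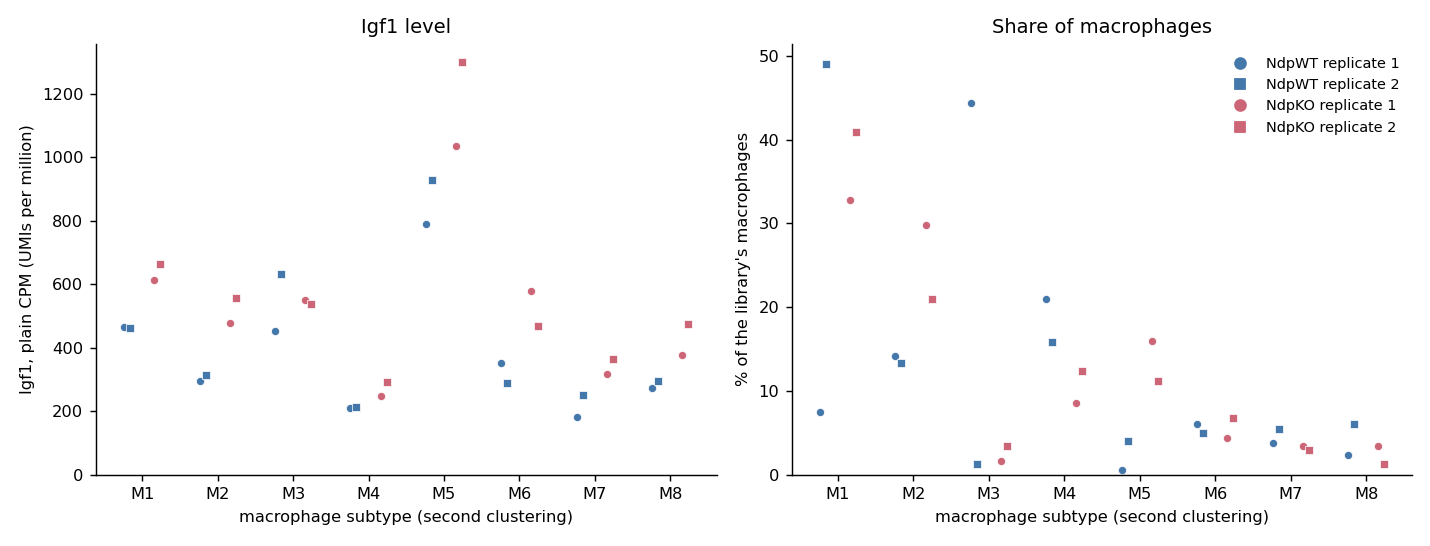
Igf1 in plain CPM (left) and the percent of a library's macrophages (right) in 8 macrophage subtypes; points are libraries. Igf1 is highest in M5 in all 4 libraries, and M5 is a larger share of macrophages in both knockout libraries.

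In mural cells, the pericytes and smooth muscle cells of the vessel wall, 9 of the 10 genes did not overlap between genotypes, but none was called. Of these, 7 were higher in both knockout libraries (beside 17.8% of all genes) and 2 were lower (beside 18.1%). Igfbp5 was at 105, 106, 286 and 185 CPM (log2 change 1.15, SE 0.198, edgeR adjusted p = 0.115). Igfbp4 was at 128, 148, 187 and 261 CPM (log2 change 0.69, SE 0.174, edgeR adjusted p = 0.278). The knockout libraries were higher for both, and DESeq2 called Igfbp5. Without NdpKO replicate 1 the Igfbp5 change was 0.81, and without NdpWT replicate 2 (1.16) or NdpKO replicate 2 (1.44) it was called. Igfbp2 was at 187, 228, 289 and 260 CPM and Igfbp7 at 3625, 3380, 4085 and 4043 CPM. The 2 genes that were lower were Igf2 (407, 316, 242 and 291 CPM) and Igfbp6 (18.1, 33.0, 9.85 and 15.2 CPM). Their carried levels were above the measured levels in every library, which is more than can be there, so the estimate was too high for them. Among the 7 higher genes the carried level was 44.7% to 139% of the measured level for Igfbp5 and 37.05% to 66.7% for Igfbp4. It was 96.7% to 148% for Igfbp2 and 151% to 462% for Igf1, so for Igf1 too the estimate was too high in every library. For Igf1r (11.9% to 15.3%), Igf2r (9.39% to 13.4%) and Igfbp7 (0.689% to 1.24%) it was lower. The mural class was 1 cluster of 762 cells, in which 7 smooth muscle markers summed to 20390, 20170, 24420 and 27180 plain CPM and 7 pericyte markers to 9949, 8028, 7813 and 6815. The 9 fibroblast markers summed to 2368, 2266, 1888 and 1844 there. The part of these shifts in the mural values was not tested.

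In fibroblasts as a class none of the 10 genes was called, and 1 had an unadjusted p under 0.05, beside 5.48% of all genes. Igf2 was at 3873, 3545, 4091 and 3321 CPM, Igf1 at 105, 130, 89.9 and 129 CPM, and for both the genotypes overlapped. Igf2 had a log2 change of -0.0012 (SE 0.152), Igf1 of -0.10 (SE 0.199). Igfbp3 was at 51.2, 57.1, 91.1 and 73.2 CPM (log2 change 0.60, SE 0.143, edgeR adjusted p = 0.583). Igfbp2, Igfbp3 and Igfbp4 were higher in both knockout libraries, beside 17.6% of all genes, and 0 genes were lower in both, beside 17.6%.

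Igfbp4 was higher in both knockout libraries in 6 of the 7 fibroblast subtypes tested, F5 being the exception, and was called in none. Over all genes the share above in both was 18.2% in F1, 21.0% in F2, 18.1% in F4, 16.2% in F5, 16.9% in F7, 16.8% in F8 and 18.9% in F9. In F2 Igfbp4 was at 785, 826, 1051 and 1146 CPM (log2 change 0.45, SE 0.130, edgeR adjusted p = 0.293), and in F8 at 131, 109, 226 and 182 CPM (log2 change 0.76, SE 0.158, edgeR adjusted p = 0.246). Both keep the knockout libraries above the wild-type ones. Igfbp5 was at 191, 175, 351 and 347 CPM in F1 (log2 change 0.93, SE 0.127, edgeR adjusted p = 0.247). Its change stayed between 0.87 and 1.00 in the 4 fits that left out a library. DESeq2 called it, beside 9 of 13032 genes in all, and so did the fit without the filter, beside 147 of 21029. With the replicate block or the stricter cell filter it was not called. In F5, 5 genes were lower in both knockout libraries, Igf1, Igf2, Igf2r, Igfbp3 and Igfbp5, beside 15.6% of all genes. The share of all genes below in both was 17.9% in F1, 20.2% in F2, 17.8% in F4, 16.4% in F7, 16.4% in F8 and 18.3% in F9. Igf2 in F5 was at 1543, 1798, 1451 and 1161 CPM (log2 change -0.35, SE 0.163, edgeR adjusted p = 0.997). The share of all genes called was 0% in F1, F7 and F8, 0.289% in F2, 0.0497% in F4, 0.0165% in F5 and 0.247% in F9.

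Outside these 4 classes none of the 10 genes was called. Igf1r in other neurons was at 106, 96.5, 155 and 136 CPM (log2 change 0.51, SE 0.192, edgeR adjusted p = 0.904), the opposite direction to endothelial cells. It is the only test of the 10 genes in granule neuron lineage, other neuron, cycling, erythroid and monocyte or dendritic cells with an unadjusted p under 0.05. Over all genes 4.95% had such a p in other neurons, and 1.47% to 3.93% in the rest of these classes. Igfbp5 had a positive log2 change in all 9 classes, from 0.09 to 1.22, and was called in none. The classes come from the same libraries, so these 9 signs are not independent of each other. Outside fibroblasts some Igfbp5 was also estimated to be carried with fibroblast RNA, and the part of that RNA in these signs was not tested.

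The wider IGF system was read through 56 further genes in 6 lists: IGF proteases and their inhibitors, other binding proteins, insulin and mannose 6-phosphate receptors, IGF1 receptor signalling, the growth hormone axis, and the Igf2 messenger and locus. In endothelial cells 46 were tested, of which 1 rose and 1 fell, beside 2.23% of all genes called there. Their median log2 change was 0.13, beside -0.0035 over all genes. Adam12, a protease that cuts IGFBP3 and IGFBP5, rose from 2.22 and 4.73 to 12.8 and 10.0 CPM (log2 change 1.57, SE 0.351, edgeR adjusted p = 0.0429). Jak2, the kinase of the growth hormone receptor, fell from 50.1 and 43.3 to 28.2 and 27.6 CPM (log2 change -0.73, SE 0.161, edgeR adjusted p = 0.0401). In each case the genotypes did not overlap. The level carried with fibroblast RNA was not estimated for any of the 56 genes, and its part in these endothelial changes was not tested. Adam12 lost its call in 4 of 12 alternatives, among them without NdpWT replicate 1 (1.26, edgeR adjusted p = 0.164) and without NdpKO replicate 1. Jak2 lost its call in 5 of 12, and among the fits that left out a library it was called only without NdpKO replicate 2. In cluster 11 the serine protease gene Htra1 rose from 32.5 and 36.3 to 62.9 and 62.1 CPM (log2 change 0.85, SE 0.170, edgeR adjusted p = 0.0161), and Adam12 and Jak2 were called there too. Insr, the insulin receptor gene, was at 103, 93.0, 71.4 and 60.2 plain CPM in endothelial cells, against 19.6 to 21.7 in fibroblasts. Its change was higher in fibroblasts than in endothelial cells by 0.64 on the log2 scale (SE 0.124, edgeR adjusted p = 0.0179).

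In the other 8 classes 0 of the 56 genes were called, with 35 (other neurons) to 54 (fibroblasts) of them tested. Of all genes, 0% to 0.0961% were called in these classes. Among fibroblast subtypes Socs2, a feedback inhibitor of growth hormone and IGF1 receptor signalling, rose in F2 from 20.7 and 23.3 to 61.8 and 64.2 CPM (log2 change 1.51, SE 0.153, edgeR adjusted p = 0.00353). It also rose in the cycling subtype F9, from 15.8 and 15.6 to 40.4 and 44.4 CPM (log2 change 1.43, SE 0.235, edgeR adjusted p = 0.0117). The knockout values were near each other and far above the wild-type values in both subtypes. The F2 call was lost without NdpWT replicate 1 (1.43, edgeR adjusted p = 0.0740), and the F9 call was lost under DESeq2 (DESeq2 adjusted p = 0.0628). Adam12 rose in F9 as well, from 57.8 and 50.2 to 110 and 97.0 CPM (log2 change 0.95, SE 0.182, edgeR adjusted p = 0.0368), and lost its call without NdpWT replicate 2 or NdpKO replicate 1 and under DESeq2.

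The likeness of other genes to Igf1, Igf2 and Igf1r was measured as Pearson's r of the log2 mean level over the 9 classes, across 12240 genes, as a description with no test. The classes share libraries and depth, and with 9 points high values are common. The gene nearest to Igf1 was Agmo (r = 0.988) and nearest to Igf2 was Cyp1b1 (r = 0.991). For Igf1r the nearest were the gene models B230369F24Rik (r = 0.973) and 5430405H02Rik (r = 0.943).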

How the data were processed

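Subdural meningeal cells were measured in 4 libraries (10x Genomics 3' v3.1 chemistry), 2 NdpWT and 2 NdpKO. The authors deposited UMI counts per gene and barcode, made with Cell Ranger 6.1.2 and mm10, per the submitters' processing notes. The counts are not normalised, and the sources used here do not say whether doublets or free RNA were removed. Plain CPM are these counts over class totals. The 10 genes and the lists were chosen with earlier results of these data known. Named genes are the 10 members and, of the 56 listed genes, those past the threshold in a class. Listed genes called only in a subtype, a cluster or a difference between classes were named after their values were seen.

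Barcodes were dropped under 500 genes, under 1000 UMIs or over 10% mitochondrial UMIs. Scrublet (scanpy 1.11.5) calls were removed, 1.70% to 2.59% of barcodes where loading would give 10.3% to 15.3%, so doublets remain. Cells were clustered on 2000 variable genes less the members, 30 principal components and 20 neighbours by Leiden at resolution 1 (leidenalg 0.10.2), and within macrophages and fibroblasts at resolution 0.5. A cluster took a name from at least 3 markers among its 100 leading genes. UMIs were summed per library and class, since cells are not replicates, and tested with edgeR 4.0.16 (quasi-likelihood, TMM, filterByExpr minimum count 10). Differences between classes are interactions with the library as a block. The steps were tested on simulated data, where for endothelial cells edgeR called 67.7% of genes with a log2 change of 1 and 98.0% of those with 2. For the fibroblast minus endothelial difference these shares were 10.5% and 83.2%. In the endothelial simulation edgeR also called 13 unchanged genes, with 12650 genes tested. The simulated counts had 1 dispersion for all genes and no difference between libraries apart from depth and genotype. The real libraries differ more than that, so these shares need not hold for them. Libraries hold 114363848 to 125981161 UMIs. No 2 libraries agreed within sampling noise (the chi-square over its degrees of freedom was 98.5 to 200.3). An exact permutation test of 2 against 2 libraries cannot go below p = 0.333, so p-values come from models across all genes and measure the spread between pools. Alternatives were DESeq2 1.42.0, no filter, a replicate block, each library left out, stricter cell filters, doublet scores, clustering settings and less fibroblast RNA.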

Additional observations from a re-analysis of the deposited data

Results flagged for a closer look

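Results are listed here where the knockout change differed between 2 cell classes by edgeR's test of the difference (adjusted p under 0.05). Igf1r stood at 1.16 for fibroblast minus endothelial and 1.35 for mural minus endothelial on the log2 scale, and of these classes it was called in endothelial cells. Igfbp6 stood at -1.35 for macrophage minus endothelial and -2.22 for mural minus endothelial. Its level carried with fibroblast RNA was 84.4% to 185% of the measured level in endothelial cells and 64.4% to 96.6% in macrophages. In mural cells it was 284% to 969%, so the estimate was too high there. The part of fibroblast RNA in these differences was not tested.

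Among 54 tested genes of the wider system, 7 differed between fibroblasts and endothelial cells, beside 2.75% of all genes. For 3 protease genes the change in fibroblasts was the lower: Adam12 stood at -1.14, the serine protease gene Htra3 at -0.867 and the gelatinase gene Mmp2 at -1.22. Socs3, a feedback inhibitor of cytokine signalling, stood at -0.588. The changes of Insr (0.639), Jak2 (0.814) and M6pr, the cation-dependent mannose 6-phosphate receptor gene (0.649), were higher in fibroblasts. M6pr also differed for macrophage minus endothelial, at 0.628. Pik3r1, the regulatory subunit of PI3-kinase, stood at -0.666 for mural minus endothelial. Of these, Adam12 and Jak2 were also called in endothelial cells by themselves. No level carried with fibroblast RNA was estimated for the genes of the wider system. The part of that RNA in their differences from endothelial cells was not tested.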

How the results depend on the processing

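The class count of calls among the 10 genes was 1, and it was 4 under DESeq2, 6 without the filter on low counts, 2 with the top doublet scores removed, 3 with less fibroblast RNA, and 2 to 9 when a library was left out (9 without NdpWT replicate 2). In subtypes the count was 0, and it was 1 under DESeq2, 8 without the filter, 1 with the stricter cell filter and 3 to 6 when a library was left out. The count of class differences was 4, and 6 to 13 when a library was left out. Over all genes, the calls in endothelial cells were 282 of 12661 in the main fit, 272 of 12661 under DESeq2 and 734 of 20327 without the filter. In subtypes the calls over all genes without the filter ran from 15 of 16694 (M4) to 301 of 20422 (F2). In the main fit they were 0 of 8714 in M4 and 36 of 12436 in F2. The counts with a library left out or with stricter cell filters are given without a share over all genes. A library left alone in its arm is assumed to vary like the others.

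With the replicate number as a block the class count was 11 and the subtype count 13. In endothelial cells the block called Igf1, Igf2, Igfbp3, Igfbp5 and Igfbp6 beside Igf1r. The protocol matches each wild-type run to a knockout run by litter but ties no replicate number to that match. The deviations of same-numbered libraries correlated at 0.0479 to 0.382 across genes in the 9 classes (endothelial 0.0885), all positive, and with 2 pairs this does not settle whether the numbers mark the match.

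Igf1r in endothelial cells was called in 12 of 12 alternatives, of which Leiden resolution 0.5 only repeated the main endothelial fit. Over single genes, 29 values gave 241 alternatives: 169 kept sign and side of the threshold, 19 lost a call, 45 gained one and 8 turned sign. Those that turned were endothelial Igfbp6 (-0.24 with the top doublet scores removed and -0.24 with less fibroblast RNA), fibroblast Igf2 near 0 (0.0068 without the filter, 0.0038 at Leiden resolution 0.5, -0.15 to 0.14 when a library was left out) and Igfbp7 in cluster 19 (-0.39 to 0.29 when a library was left out). The cause was not tested. The class with the highest level was the same with TMM and plain totals for the 10 genes. With 2 libraries a genotype and 272 to 1083 endothelial cells per library, low members such as endothelial Igf1 and mural Igfbp6 are known only roughly.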
